A study of Homo sapiens with 12 samples.

Results

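This account describes how RCC4 cells that lack functional VHL responded at the RNA level to 6 h without cystine. It rests on 6 of the 12 arrays of the series, chosen by their labels: 3 arrays of RCC4 cells with an empty vector (Vec) in cystine-deprived medium and 3 of the same cells in control medium. RCC4 is an established line from a clear cell renal carcinoma. The other 6 arrays hold RCC4 cells with VHL put back (VHL cells) under the same media and serve as a reference. Control cells stayed in full DMEM with 10% fetal bovine serum, and deprived cells were given DMEM without cystine and with 10% dialysed serum, both with penicillin and streptomycin. Dialysed serum is named for the deprived medium alone, so the loss of cystine and the change of serum cannot be told apart. All cells share the RCC4 background, and the labels do not say whether the lines are clones or pools. They call the arrays biological replicates, numbered 1 to 3, without saying that each is a separate culture, so p-values measure the spread between these arrays, which may be technical.

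Cystine is the oxidised form in which most cultured cells import cysteine, which is used for protein and for glutathione, the main small thiol of the cell. When an amino acid runs short, uncharged tRNA activates the kinase GCN2, which phosphorylates the initiation factor eIF2. General translation then slows while the transcription factor ATF4 is translated more, and ATF4 with its partners raises genes for amino acid synthesis, uptake and tRNA charging. By its title the study is about a need for cystine in renal carcinoma cells without VHL, and the comparison asks which transcripts moved when cystine was withdrawn.

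Values are log2 expression per probe set on single-colour Affymetrix arrays. They ran from 3.26 to 14.79, with array medians between 7.12 and 7.177, and each of 11963 genes was read through its brightest probe set. No array duplicated another. The probe set for VHL was dim, at 5.80, 5.87 and 5.88 in control and 5.87, 6.07 and 6.03 in deprived Vec cells, and it cannot check the label. Targets of the hypoxia-inducible factors, which VHL marks for destruction, can be read instead. In control medium 20 of 29 such genes were lower in VHL than in Vec cells and 4 higher, with a median log2 difference of -1.07, where 46.1% of all genes were called and 23.0% were called lower (limma, adjusted p under 0.05). The largest differences were in COXFA4L2 (older symbol NDUFA4L2), a mitochondrial protein, at -5.69 ± 0.12, STC1, a secreted glycoprotein, at -5.16 ± 0.12, ADM, the vasodilator adrenomedullin, at -3.56 ± 0.05, EGLN3, an oxygen-sensing hydroxylase, at -3.24 ± 0.06, and CA12, a carbonic anhydrase, at -3.20 ± 0.04. The renal factors PAX8 and PAX2 had mean levels of 10.96 and 9.79. All 6 markers of mature proximal tubule, all 7 of blood and all 7 of endothelium were dim, with a mean at or under 6.47, as were 5 of 7 fibroblast markers. No marker of these types was called in Vec cells. The log2 of summed marker levels ran from 15.11 to 15.14 in control and 15.13 to 15.16 in deprived arrays for renal markers, from 8.16 to 8.24 and 8.19 to 8.26 for tubule, from 8.31 to 8.41 and 8.37 to 8.39 for blood, from 8.22 to 8.26 and 8.2 to 8.28 for endothelium, and from 9.09 to 9.12 and 9.12 to 9.17 for fibroblasts. In such bulk samples fewer responding cells and less RNA per cell cannot be told apart.

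In the deprived medium some genes of cysteine supply, of the amino acid response and of tRNA charging rose. Some cytosolic chaperones and some genes of DNA replication fell. Of 11963 genes 500 were called, that is, had an adjusted p under 0.05 in limma with Benjamini-Hochberg adjustment over all genes (4.18%). Of these, 253 rose (2.11%) and 247 fell (2.06%). Counts in the gene lists below are to be read against these shares, and a list with no call or a single call is near them. Rises were larger than falls, with a median log2 change of 0.33 among the called rises and -0.27 among the called falls, while the median over all genes was 0.006. Leaving out any 1 Vec array lowered the count to between 253 and 303. A total of 181 genes (1.51%) stayed called without any 1 of the 6 Vec arrays, 120 of them rises (1.0%) and 61 falls (0.510%), and such calls are named steady below. Replicate numbers given below are those of the Vec arrays. The 3 deprived and 3 control values did not overlap in 2711 genes (22.7%), among them all 500 called. Every called gene thus has groups that are apart, and statements of this below add no support to a call. Calls were rarer among dim genes. In the lowest tercile of mean level 0.376% of genes rose and 0.251% fell, against 3.91% and 3.46% in the highest.

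**Figure D1:**
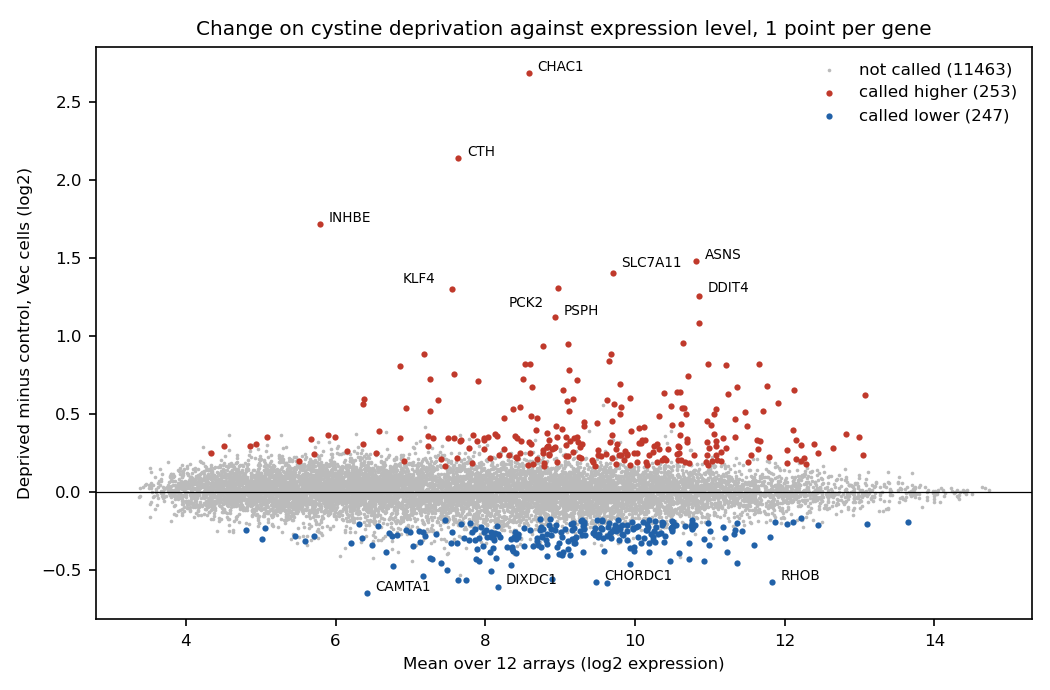
Each point is a gene, with its mean log2 expression over the 12 arrays on the horizontal axis and the log2 difference of deprived minus control Vec cells on the vertical axis. Red points are the 253 called rises, blue points the 247 called falls and grey points genes that were not called, and the rises reach 2.68 (CHAC1) while the lowest fall is at -0.65 (CAMTA1).

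The gene that rose most was CHAC1, an enzyme that cleaves glutathione. It measured 7.73, 7.60 and 7.35 in the control and 10.29, 10.35 and 10.08 in the deprived arrays. Every deprived value lay more than 2 log2 units above every control value, and the rise was 6.42-fold (2.68 ± 0.10 on the log2 scale, 3 arrays per group, limma adjusted p = 4.15e-09). CTH, the enzyme that releases cysteine from cystathionine, measured 6.35, 6.63 and 6.56 in control and 8.55, 8.59 and 8.81 in deprived cells, a 4.41-fold rise (log2 2.14 ± 0.09, limma adjusted p = 1.05e-08). A dimmer probe set for CTH also rose, by 1.57 ± 0.08. SLC7A11, the transport subunit of the exchanger that brings cystine in against glutamate, measured 9.05, 9.0 and 8.82 in control and 10.38, 10.38 and 10.31 in deprived cells. It rose 2.64-fold (log2 1.40 ± 0.08, limma adjusted p = 2.67e-07), and a further probe set gave 1.47 ± 0.12. SLC3A2, the partner chain of that exchanger, measured 10.32, 10.25 and 10.28 in control and 10.86, 11.02 and 10.90 in deprived cells and rose by 0.64 ± 0.05. Control and deprived values were apart in all 4 genes.

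These 4 were the only called members of the 23 measured genes of cysteine and glutathione metabolism (4 higher, 0 lower, median 0.06), and all 4 calls were steady. The enzymes that build glutathione were not called. GCLC, the catalytic subunit of the first step, measured 9.62, 9.56 and 9.64 in control and 9.54, 9.46 and 9.64 in deprived cells (-0.06). Its modifier subunit GCLM gave -0.17 and glutathione synthase, GSS, 0.06. CBS, the enzyme ahead of CTH in the route from homocysteine, was dim and gave 0.03. The rises of CHAC1, CTH and both chains of the exchanger thus stood beside values between -0.17 and 0.06 for the enzymes of glutathione synthesis.

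The sequence TGATGNAA is the core of the amino acid response element that ATF4 and its partners are known to bind, and it was looked for on both strands of RefSeq promoters (GRCh38.p14, 250 bases before to 50 after the gene start), which were found for 9563 of the measured genes. The stretches below are examples from genes with steady rises that hold a match before the start. Capitals mark the match, read 5′ to 3′ on the strand of the gene, and TTGCATCA is the match on the opposite strand.
CHAC1: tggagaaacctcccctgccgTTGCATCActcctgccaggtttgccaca
ASNS: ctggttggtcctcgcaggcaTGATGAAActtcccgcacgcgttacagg
GOT1: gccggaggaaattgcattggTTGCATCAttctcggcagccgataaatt
ATF3: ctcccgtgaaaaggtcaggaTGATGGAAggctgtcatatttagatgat
AARS1: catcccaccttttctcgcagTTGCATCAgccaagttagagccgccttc
These lie at chr15:40953242-40953289 (plus strand, match 209 to 202 bases before the start), chr7:97872449-97872496 (minus strand, 68 to 61 bases), chr10:99430795-99430842 (minus strand, 198 to 191 bases), chr1:212565196-212565243 (plus strand, 191 to 184 bases) and chr16:70289666-70289713 (minus strand, 187 to 180 bases). The same 8 letters stood in 215 of all 9563 promoters (2.25%), in 18 of 210 promoters of called rises (8.57%) and in 2 of 210 of called falls (0.952%). Among the measured cytosolic tRNA synthetases 5 of 13 promoters held them (38.5%), and all 5 belonged to the 9 of these that rose. Other called rises with a match wholly before the start were IARS1, PLK3, BCAS2 and CDYL. HSPA4L, a chaperone gene that fell, holds TGATGAAA, the letters found in ASNS, 157 to 150 bases before its start, and the other called fall with a match was FAM171A1. A match is a description of letters in this window, and binding was not measured here.

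Among ATF4, its partner factors and the genes that control eIF2, 7 of 19 rose and 2 fell (median 0.08). ATF4 itself was bright and little moved, at 12.95, 12.91 and 12.98 in control and 13.05, 13.06 and 13.06 in deprived cells (0.11 ± 0.04, limma adjusted p = 0.170). DDIT3, also known as CHOP, measured 8.28, 8.34 and 8.49 in control and 9.36, 9.29 and 9.25 in deprived cells and rose by 0.93 ± 0.06. NUPR1, a small chromatin protein of the stress response, measured 9.97, 9.93 and 9.97 in control and 10.86, 10.90 and 10.98 in deprived cells and rose by 0.96 ± 0.05. Deprived and control arrays were apart in both.

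ATF3, a stress-induced repressor and activator, measured 8.73, 8.69 and 8.67 in control and 9.56, 9.51 and 9.49 in deprived cells and rose by 0.82 ± 0.07. CEBPB, a dimer partner of ATF4, rose by 0.82 ± 0.08 and CEBPG, another partner, by 0.72 ± 0.06. TRIB3, a pseudokinase that holds ATF4 and AKT in check, rose by 0.82 ± 0.07, and PPP1R15A, which directs a phosphatase to eIF2, by 0.60 ± 0.06. All 7 rises were steady. The 2 falls were not. ATF5 gave -0.29 ± 0.07 and lost its call without any 1 of 5 arrays, all but Vec deprived replicate 1 (adjusted p 0.0692 to 0.131), and CEBPD gave -0.29 ± 0.07 and lost it without any 1 of 5, all but Vec control replicate 3 (0.0711 to 0.117).

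Genes that make serine, one-carbon units, asparagine and aspartate had 8 of 16 members higher and 0 lower, with a median of 0.20. ASNS, asparagine synthetase, measured 10.08, 10.10 and 10.12 in control and 11.52, 11.57 and 11.65 in deprived cells and rose 2.79-fold (log2 1.48 ± 0.05). PCK2, the mitochondrial phosphoenolpyruvate carboxykinase, measured 8.82, 8.72 and 8.83 in control and 10.05, 10.07 and 10.17 in deprived cells and rose 2.48-fold (log2 1.31 ± 0.06). Replicates of these genes spread by less than 0.2 within a group, far less than the step between media.

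GOT1, an aspartate aminotransferase, measured 9.44, 9.38 and 9.40 in control and 10.21, 10.36 and 10.32 in deprived cells and rose by 0.89 ± 0.06. PSAT1, which makes phosphoserine, rose by 0.78 ± 0.09, and MTHFD2, a mitochondrial folate enzyme, by 0.65 ± 0.05. PSPH, which frees serine in the last step, was the least even: it measured 7.87, 8.31 and 7.66 in control and 9.04, 9.10 and 9.06 in deprived cells (1.12 ± 0.14, limma adjusted p = 4.05e-04). An equally bright probe set for PSPH gave only 0.36 ± 0.12 (adjusted p = 0.139, not called), so the size of its rise is uncertain. SHMT2, a mitochondrial serine enzyme, at 0.27 ± 0.06, and PYCR1, of proline synthesis, at 0.26 ± 0.07, were called but not steady. SHMT2 lost its call without control replicate 2 or 3 or deprived replicate 1 or 2 (0.0537 to 0.0805), and PYCR1 without any 1 of the 6 (0.0825 to 0.159). PHGDH, the first enzyme of serine synthesis, gave 0.14 and was not called. Without probe sets that may bind several transcripts 12 members were left, 5 of them called higher.

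Of 24 measured amino acid transporters 7 rose and 0 fell, and 12 lay above and 12 below 0. SLC1A4, a carrier of neutral amino acids such as serine and alanine, measured 8.77, 8.75 and 8.75 in control and 9.64, 9.68 and 9.78 in deprived cells and rose by 0.95 ± 0.05. SLC38A2, a sodium-coupled neutral amino acid transporter, measured 11.43, 11.55 and 11.51 in control and 12.12, 12.19 and 12.22 in deprived cells and rose by 0.68 ± 0.06. Groups did not overlap in either. Smaller rises were those of SLC7A1, a carrier of arginine and lysine, by 0.40 ± 0.04, SLC7A5, a carrier of large neutral amino acids that also pairs with SLC3A2, by 0.35 ± 0.05, and SLC38A1 by 0.33 ± 0.05. The glutamine carrier SLC1A5 gave 0.31 ± 0.06 and lost its call without control replicate 2 or 3 or deprived replicate 2 (0.0525 to 0.0616). With probe sets that may bind several transcripts left out, 13 transporters remained measured and 1 was called higher.

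Cytosolic aminoacyl-tRNA synthetases, which load tRNA with amino acids, had 10 of 16 higher and 0 lower, with a median of 0.26. WARS1, the enzyme for tryptophan, measured 9.41, 9.49 and 9.55 in control and 10.10, 10.30 and 10.13 in deprived cells (0.69 ± 0.06). SARS1, for serine, measured 11.22, 11.20 and 11.25 in control and 11.81, 11.89 and 11.85 in deprived cells (0.63 ± 0.04). GARS1, for glycine, measured 12.77, 12.70 and 12.73 in control and 13.35, 13.40 and 13.31 in deprived cells (0.62 ± 0.04). These rises were close to each other in size and the groups were apart.

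CARS1, the enzyme for cysteine itself, did not lead the family. It measured 11.82, 11.76 and 11.85 in control and 12.39, 12.46 and 12.29 in deprived cells (0.57 ± 0.05). AARS1, for alanine, rose by 0.50 ± 0.05, YARS1, for tyrosine, by 0.37 ± 0.05, and TARS1, for threonine, by 0.27 ± 0.05. EPRS1, IARS1 and NARS1 were called at 0.31, 0.22 and 0.24 but not steady. EPRS1 lost its call without control replicate 2 or 3 or deprived replicate 2 or 3 (0.0668 to 0.0731), IARS1 without any Vec array but Vec deprived replicate 1 (0.052 to 0.0934), and NARS1 without control replicate 1 or 3 or deprived replicate 2 or 3 (0.0563 to 0.079). At the low end RARS1, for arginine, gave -0.09, KARS1, for lysine, -0.02 and VARS1, for valine, 0.03. Mitochondrial synthetases had 0 of 10 called, from -0.05 (NARS2) to 0.18 (RARS2). With probe sets that may bind several transcripts left out, 6 of 10 cytosolic synthetases were called higher, with a median of 0.26.

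**Figure D2:**
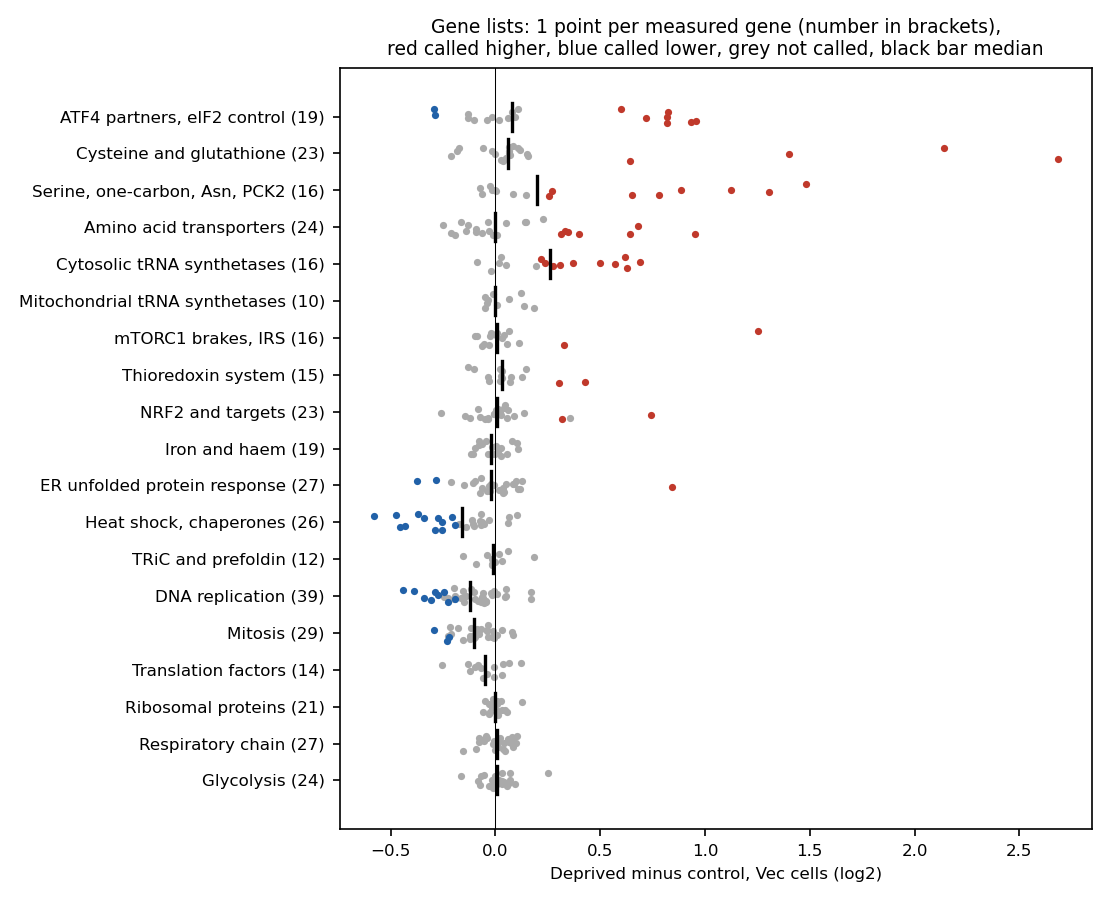
Each row is a gene list and each point a measured gene, placed at its log2 difference of deprived minus control Vec cells, with called rises in red, called falls in blue and the median as a black bar. Rises lie in the upper rows, where 10 of 16 cytosolic tRNA synthetases and 8 of 16 genes of serine and related synthesis were called, and most falls lie in the rows of chaperones (12) and DNA replication (9).

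The next groups hold brakes on growth and secreted stress proteins. DDIT4, which restrains the growth kinase complex mTORC1, measured 11.48, 11.44 and 11.44 in control and 12.73, 12.71 and 12.67 in deprived cells and rose 2.39-fold (log2 1.25 ± 0.05, limma adjusted p = 4.15e-09). It and EIF4EBP1, a repressor of cap-dependent translation, at 0.33 ± 0.05, were the 2 called of 16 genes that restrain or feed mTORC1 (median 0.01). Among 20 stress-induced secreted proteins 4 rose and 1 fell (median 0.05). INHBE, an inhibin subunit, measured 4.76, 4.80 and 4.75 in control and 6.54, 6.40 and 6.52 in deprived cells (1.71 ± 0.07). Its control values were dim, so that the fold may be understated. GDF15, a cytokine of cell stress, measured 9.64, 9.67 and 9.80 in control and 10.78, 10.72 and 10.86 in deprived cells (1.08 ± 0.06). That probe set may bind several transcripts, and the only other one, which was dim, gave 0.26 ± 0.10 (adjusted p = 0.241, not called). STC2, a secreted glycoprotein, measured 11.04, 11.02 and 11.07 in control and 11.82, 11.91 and 11.84 in deprived cells (0.81 ± 0.05). Groups were apart in all 4 genes with array values here.

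ANGPTL4, an inhibitor of lipoprotein lipase, gave 0.59 ± 0.12 and lost its call without control replicate 1 or 2 or deprived replicate 1 or 2 (0.0504 to 0.0624), and the 1 that fell, BMP2, gave -0.35 ± 0.09 and lost it without any Vec array but Vec deprived replicate 1 (0.0622 to 0.177). KLF4, a transcription factor of epithelial differentiation, was the seventh largest rise. It measured 6.56, 6.78 and 6.87 in control and 8.09, 7.88 and 8.14 in deprived cells (1.30 ± 0.10). A dim further probe set gave 0.45 ± 0.13 and was not called. XBP1, a factor of the unfolded protein response, measured 9.15, 9.33 and 9.26 in control and 10.03, 10.07 and 10.15 in deprived cells (0.84 ± 0.08). KDM7A, a histone demethylase, measured 6.99, 6.84 and 7.09 in control and 8.01, 7.79 and 7.78 in deprived cells (0.89 ± 0.10), and in all 3 genes the groups did not overlap.

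XBP1 was the only rise among 27 genes of the endoplasmic reticulum response (median -0.02). Its chaperone HSPA5, or BiP, measured 12.85, 13.01 and 12.97 in control and 12.86, 12.90 and 12.89 in deprived cells (-0.06, not called). The 2 called lower were DNAJB9, a co-chaperone, at -0.28 ± 0.07, lost without any 1 of the 6 Vec arrays (0.0509 to 0.133), and SDF2L1 at -0.38 ± 0.08, lost without control replicate 1 or 3 or deprived replicate 2 (0.0697 to 0.076).

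**Figure D3:**
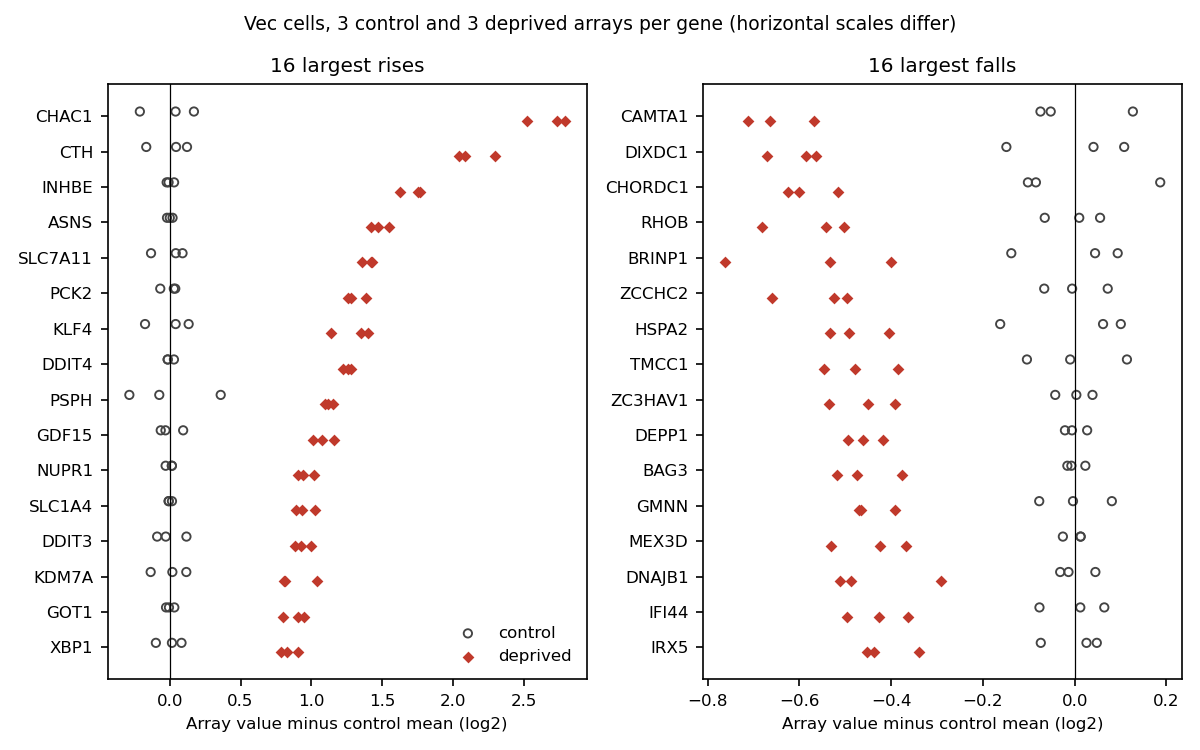
The left panel shows the 16 largest steady rises and the right panel the 16 largest steady falls, each row giving the 3 control arrays (open circles) and 3 deprived arrays (red diamonds) of a gene as log2 value minus the mean of its control arrays. In every row the control and deprived values are apart, as the choice of these genes required, and the horizontal scales of the panels differ.

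Most measured genes of redox defence were not called. Of 23 measured targets and regulators of NRF2, the factor that senses oxidants, 2 rose and 0 fell (median 0.01). The share of rises was 8.7%, against 2.11% of all genes. HMOX1, which breaks down haem, measured 11.11, 10.95 and 11.44 in control and 11.95, 11.88 and 11.90 in deprived cells and rose by 0.74 ± 0.09, with an uneven control group. NFE2L1, a relative of NRF2, rose by 0.32 ± 0.04. NQO1, a quinone reductase often read as an NRF2 target, measured 10.50, 10.50 and 10.52 in control and 10.57, 10.68 and 10.53 in deprived cells (0.09, not called). Of 15 genes of the thioredoxin system 2 rose (13.3%, median 0.03). They were TXNIP, which inhibits thioredoxin, by 0.43 ± 0.06 and TXNRD1, which reduces it, by 0.30 ± 0.04.

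Genes of iron and haem handling had 0 of 19 called, with the transferrin receptor TFRC at -0.02 and the ferritin light chain FTL at -0.02. Of 16 further genes tied to ferroptosis, the iron-dependent death that follows loss of glutathione, 5 were called higher (median 0.09), and of these CARS1 alone was steady. The others were SLC1A5, given above, PTGS2, a prostaglandin synthase, at 0.56 ± 0.13, SAT1, of polyamine breakdown, at 0.24 ± 0.06, and LPCAT3, a phospholipid enzyme, at 0.16 ± 0.04. PTGS2 lost its call without any 1 of the 6 Vec arrays (0.0549 to 0.113), SAT1 without any but Vec control replicate 3 (0.0692 to 0.137), and LPCAT3 without any but Vec deprived replicate 3 (0.0908 to 0.14). GPX4, the lipid peroxidase, gave 0.07 and ACSL4, which loads membranes with oxidisable fat, 0.10 ± 0.16, and neither was called.

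Of 26 measured chaperones and heat shock genes, mostly cytosolic, 12 were called lower (46.2%, against 2.06% of all genes), 5 of them steady, and 0 higher. The other 14 were not called (median -0.16, 23 of 26 below 0). CHORDC1, a partner of HSP90, measured 9.70, 9.99 and 9.72 in control and 9.18, 9.20 and 9.29 in deprived cells and fell by 0.58 on the log2 scale. BAG3, a co-chaperone of HSP70, measured 11.69, 11.66 and 11.65 in control and 11.19, 11.15 and 11.29 in deprived cells and changed by -0.46 ± 0.05. DNAJB1, which feeds substrates to HSP70, measured 11.02, 11.04 and 11.10 in control and 10.54, 10.57 and 10.76 in deprived cells and changed by -0.43 ± 0.06. Every deprived value of these genes lay below every control value.

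HSPA2, an HSP70 family member, measured 6.82, 6.78 and 6.56 in control and 6.32, 6.19 and 6.23 in deprived cells (-0.48 ± 0.07), and HSPA4L, a nucleotide exchange factor of that family, changed by -0.37 ± 0.06. These 5 falls were steady. The number called lower was 5 without control replicate 2 or deprived replicate 1, 7 without control replicate 3 or deprived replicate 3, and 8 without either of the others. With probe sets that may bind several transcripts left out it was 3 of 13, with a median of -0.11. The other 7 were not steady. HSPH1, at -0.34, was lost without control replicate 2 or deprived replicate 1 (adjusted p up to 0.0585). HSPE1, a mitochondrial chaperone, at -0.29, and HSP90AA1, at -0.19, were lost without any Vec array but control replicate 1 (up to 0.128 and 0.14). DNAJB4, at -0.27, was lost without any but control replicate 3 (up to 0.15). DNAJA1, at -0.25, was lost without any but deprived replicate 3 (up to 0.0927). STIP1, at -0.25, and PTGES3, at -0.21, were lost without any but deprived replicate 2 (up to 0.0941 and 0.0731). HSF1, the heat shock factor, gave 0.06 and HSPD1, another mitochondrial chaperone, -0.06, and neither was called. The TRiC and prefoldin folding complexes had 0 of 12 called and the proteasome 1 of 26 lower (median -0.03), PSMC2 at -0.17 ± 0.04, which lost its call without any Vec array but Vec deprived replicate 3 (0.0895 to 0.167).

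Heat shock elements are inverted repeats of GAA, searched for on both strands as the units GAA, TTC and GAA set 2 bases apart. The promoter of CHORDC1 is shown because it was the largest fall of the family and holds 3 overlapping matches, in capitals.
CHORDC1: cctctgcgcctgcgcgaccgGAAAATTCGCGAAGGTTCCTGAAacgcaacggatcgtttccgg
It lies at chr11:90223067-90223129 (GRCh38.p14, RefSeq, minus strand), with the capitals 60 to 38 bases before the start. A match was present in 36 of 9563 promoters (0.376%), in 3 of 23 promoters of the chaperone list (13%), in 2 of 210 of called falls (0.952%) and in 0 of 210 of called rises. The 2 called falls with a match were CHORDC1 and DNAJA1. The antioxidant element, searched for as TGACNNNGC, stood in 14.9% of all promoters, in 15.2% of those of called rises and in 14.8% of those of called falls.

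Of 39 measured genes of DNA replication 9 were called lower, 2 of them steady, and 0 higher, and 30 were not called (median -0.12, 33 below 0). The share called lower was 23.1%, against 2.06% of all genes and 3.46% in the highest tercile of mean level. GMNN, geminin, which blocks a second firing of origins, measured 11.24, 11.40 and 11.31 in control and 10.85, 10.85 and 10.93 in deprived cells (-0.44 ± 0.06). GINS1, a subunit of the replicative helicase, measured 11.36, 11.36 and 11.32 in control and 10.99, 11.02 and 11 in deprived cells (-0.34 ± 0.04). Both fell in every deprived array and were the steady members. The count was 3 without deprived replicate 1 or 2, 4 without control replicate 2, and 6 or 7 without any of the others. It was 4 in a fit of the 6 Vec arrays alone, and 3 of 27 with probe sets that may bind several transcripts left out. The other 7 called were not steady. MCM10, at -0.39, was lost without control replicate 1 or deprived replicate 1 (adjusted p up to 0.0537), ORC1, at -0.31, without control replicate 2 or deprived replicate 1 or 2 (up to 0.0624), and CDC6, at -0.29, without deprived replicate 2 (0.0502). ORC6, at -0.27, was lost without control replicate 2 or 3 or deprived replicate 1 or 2 (up to 0.0987), RFC3, at -0.25, without control replicate 1 or 2 or deprived replicate 1 or 2 (up to 0.108), and POLE2, at -0.23, and FEN1, at -0.19, without any 1 of the 6 (up to 0.155 and 0.135).

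Mitosis genes had 3 of 29 lower (10.3%, against 2.06% of all genes, median -0.10), with ASPM, a spindle pole protein, at -0.29 ± 0.05 steady. The spindle checkpoint kinases BUB1, at -0.23 ± 0.05, and BUB1B, at -0.22 ± 0.06, were not steady, the former lost without control replicate 1 or 2 or deprived replicate 1 or 3 (0.0578 to 0.0782) and the latter without any 1 of the 6 (0.0818 to 0.157). Genes of the G1 phase had 3 of 23 lower (median -0.11). CDC25A, a phosphatase that activates cyclin-dependent kinases, was steady at -0.32 ± 0.06. SKP2, part of a ubiquitin ligase, at -0.36 ± 0.07, lost its call without control replicate 2 or deprived replicate 1 (0.058 and 0.0666), and CCND3, a D-type cyclin, at -0.22 ± 0.06, without any 1 of the 6 (0.0505 to 0.159). The inhibitor CDKN1A, or p21, gave 0.15 and was not called.

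The other large steady falls came from no single list. CAMTA1, a calmodulin-binding transcription activator, measured 6.46, 6.44 and 6.64 in control and 5.95, 5.85 and 5.80 in deprived cells (-0.65 ± 0.10). It was dim, with a mean over the 12 arrays under 6.47, so background may limit the size of its fall. DIXDC1, a protein of Wnt signalling, measured 8.58, 8.52 and 8.33 in control and 7.81, 7.91 and 7.89 in deprived cells (-0.61 ± 0.07). RHOB, a short-lived GTPase of the actin skeleton, measured 12.24, 12.28 and 12.16 in control and 11.55, 11.72 and 11.68 in deprived cells (-0.58 ± 0.06). The groups were apart in each.

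BRINP1 changed by -0.57, ZCCHC2 by -0.56, ZC3HAV1, an antiviral RNA-binding protein, by -0.46, MEX3D, an RNA-binding protein, by -0.44 and IRX5, a homeobox factor, by -0.41. For MEX3D the only other probe set, which was dim, gave -0.04 ± 0.08 and was not called. DEPP1 changed by -0.46, but a second probe set of like brightness gave -0.14 ± 0.11 and was not called. TMCC1 changed by -0.47 and IFI44, an interferon-induced gene, by -0.43, each through a probe set that may bind several transcripts. Without such probe sets they gave -0.328 (adjusted p = 0.115) and -0.108 (0.740).

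Stress and growth signalling gave some genes of a list rather than whole groups. The share of rises was 13.6% for early response genes, 14.3% for KLF factors and 11.8% for feedback genes of MAP kinase signalling. It was 9.09% for targets of YAP and SRF and largest for p53 targets, against 2.11% of all genes. A single rise, as among regulators of NF-kB and the BCL2 family, is near that share. No difference between these shares was tested. Of 20 p53 targets 4 rose (median 0.02): GADD45B by 0.64 ± 0.05 and GADD45A by 0.51 ± 0.07, both growth arrest genes and steady, and the unsteady PLK3 at 0.29 ± 0.07 and BTG1 at 0.22 ± 0.05, each lost without any 1 of the 6 Vec arrays (adjusted p up to 0.149 and 0.139). Of 22 early response genes 3 rose (median 0.05). PHLDA1 measured 10.79, 10.99 and 11.11 in control and 11.55, 11.47 and 11.47 in deprived cells (0.53 ± 0.09). FOSL1 at 0.33 ± 0.07 lost its call without control replicate 1 or 2 or deprived replicate 2 (0.0512 to 0.0657), and IER3 at 0.33 ± 0.08 without any but Vec control replicate 3 (0.0622 to 0.127). FOS gave 0.13, EGR1 0.15 and JUN -0.09, none of them called.

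Of 17 feedback genes of MAP kinase signalling 2 rose (median 0.03), the phosphatases DUSP6 at 0.52 ± 0.10, lost without control replicate 1 or 2 or deprived replicate 1 (0.0587 to 0.0592), and DUSP10 at 0.31 ± 0.06, lost without control replicate 3 or deprived replicate 2 (0.0532 and 0.0553). Of 14 KLF factors 2 rose (median 0.06), KLF4 and KLF10, the latter at 0.36 ± 0.08 and lost without any but Vec control replicate 2 (0.0744 to 0.115). Of 22 targets of YAP and SRF, factors that follow the actin skeleton, 2 rose and 1 fell (median 0.02), among them CCN2, a matricellular protein, which rose by 0.46 ± 0.06, and RHOB, which fell as given above.

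Inflammatory mediators had a median of 0.18, the highest of the signalling lists, and 3 of 21 were called higher (14.3%, against 2.11% of all genes). ICAM1, an adhesion molecule, measured 9.39, 9.17 and 9.53 in control and 9.98, 9.85 and 9.88 in deprived cells (0.54 ± 0.09) and was steady. CXCL8, the chemokine interleukin 8, measured 10.42, 10.50 and 10.85 in control and 11.27, 11.02 and 11.14 in deprived cells, apart but variable (0.55 ± 0.21, limma adjusted p = 0.190). PTGS2, given above, and VCAM1, another adhesion molecule, at 0.21 ± 0.05, were not steady, and VCAM1 lost its call without any Vec array but Vec control replicate 2 (0.0736 to 0.133). Of 17 regulators of NF-kB 1 rose (median 0.06), TNFAIP3 at 0.54 ± 0.13, lost without any 1 of the 6 (0.0594 to 0.141).

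Among 17 genes of death receptor signalling 2 rose and 1 fell (median 0.04). TNFSF10, the ligand TRAIL, measured 10.21, 10.33 and 10.17 in control and 9.93, 9.92 and 9.94 in deprived cells (-0.31 ± 0.05), apart and steady. TNFRSF1A, a receptor for TNF, at 0.25 ± 0.05, lost its call without control replicate 3 or deprived replicate 2 or 3 (0.0615 to 0.0713), and CYLD, a deubiquitinase, at 0.24 ± 0.06, without any 1 of the 6 (0.0599 to 0.15). Of 18 members of the BCL2 family 1 rose (median 0.05): PMAIP1, the pro-death protein NOXA, measured 11.41, 11.30 and 11.45 in control and 12.11, 12 and 12.06 in deprived cells (0.67 ± 0.08). Of 29 interferon-induced genes (median 0.04) IFI44L rose by 0.54 ± 0.10 and IFI44 was called lower, 3.45% each way, near the shares over all genes. The IFI44 call rests on a probe set that may bind several transcripts. The other one, which was dim, gave -0.11 and was not called.

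Targets of the hypoxia-inducible factors, of which 20 of 29 were higher in Vec than in VHL cells in control medium, had 4 of 29 higher and 2 lower on deprivation (median 0.01). The 5 genes used above to check the labels gave changes between -0.06 and 0.06 and were not called. STC2 rose, as given above, VLDLR, a lipoprotein receptor that was lower in Vec than in VHL cells in control medium, by 0.43 ± 0.06, and JMJD6, a hydroxylase, changed by -0.35 ± 0.06. ANGPTL4, given above, EDN1, endothelin, at 0.36 ± 0.08, and EGLN1, an oxygen-sensing hydroxylase, at -0.18 ± 0.05, were not steady. EDN1 lost its call without control replicate 2 or deprived replicate 1 or 3 (0.0761 to 0.0857), and EGLN1 without any 1 of the 6 (0.0824 to 0.152).

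Several groups held no called gene, which in lists of this size is near the share of all genes called (4.18%). These were glycolysis (0 of 24, from -0.16 to 0.25), the respiratory chain (0 of 27, from -0.16 to 0.10), sterol and fatty acid synthesis (0 of 22, from -0.25 to 0.21), ribosomal proteins (0 of 21, from -0.06 to 0.12), ribosome assembly (0 of 20, from -0.14 to 0.17), translation factors (0 of 14, median -0.05, with the cap-binding protein EIF4E lowest at -0.25) and RNA regulators (0 of 24, from -0.24 to 0.16). Markers of renal epithelium (0 of 19), blood cells (0 of 12), endothelium (0 of 9) and fibroblasts (0 of 12) were likewise not called. Autophagy genes had 2 of 26 higher (median 0.05), MAP1LC3B at 0.20 ± 0.04 and OPTN at 0.23 ± 0.06, both lost without any 1 of the 6 Vec arrays (adjusted p up to 0.0785 and 0.163). Lipid handling had 1 of 21 higher, VLDLR. The shares of rises were 7.69% for autophagy and 4.76% for lipid handling, against 2.11% of all genes.

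Of 19 genes of methionine and polyamine metabolism 2 rose and 1 fell. AMD1, which commits methionine to polyamines, measured 11, 11.08 and 11.08 in control and 10.73, 10.79 and 10.65 in deprived cells (-0.33 ± 0.06). SMOX, which oxidises spermine, rose by 0.49 ± 0.07 (without probe sets that may bind several transcripts 0.385, adjusted p = 0.0748), and SAT1 is given above. Of 14 circadian genes (median -0.11) NFIL3 was called at 0.19 ± 0.04, lost without any 1 of the 6 Vec arrays (0.0602 to 0.103). Of 26 matrix genes PLAU, the urokinase, was called at 0.50 ± 0.11, lost without any but Vec control replicate 3 (0.0561 to 0.0841). Of 12 metallothionein and zinc genes SLC39A14, a zinc importer, was called at 0.24 ± 0.05, lost without any but Vec control replicate 3 (0.065 to 0.102).

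Other probe sets of the called genes bear on these values. The 103 called rises with further probe sets had 179 of them, of which 157 had the same sign (87.7%), 62 were called the same way (34.6%) and 0 the opposite way. For the 111 called falls 156 of 191 had the same sign (81.7%), 27 were called the same way (14.1%) and 0 the opposite way. Rises were thus repeated by a second probe set more often than falls in this count, and no difference between these shares was tested.

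Where VHL had been put back, the same medium change called 1392 genes (11.6%), 737 higher (6.16%) and 655 lower (5.48%). Vec and VHL responses share no arrays, but both were tested with 1 standard error per gene from the fit of all 12. A call in 1 line is therefore not independent of a call in the other. Of the 253 rises in Vec cells 190 were also called rises in VHL cells, a set that makes up 190 of the 737 there, and 147 of the 247 falls were among the 655. The responses themselves differed in 16 genes (0.134%, limma test of the difference, 1176 at an unadjusted p under 0.05), of which 10 were rises in Vec cells. CHAC1 and CTH were not among them, with 2.68 and 2.14 in Vec and 2.52 and 2.38 in VHL cells, and 95% intervals of the difference, VHL minus Vec, from -0.45 to 0.14 and from -0.03 to 0.50. ASNS, with 1.48 in Vec and 1.55 in VHL cells, had an interval from -0.08 to 0.22.

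In each of the 10 the rise was smaller in Vec cells. Among all genes called in Vec cells, 124 of the 253 rises and 155 of the 247 falls were smaller, or of opposite sign, in VHL cells. GOT1, at 0.89 in Vec and 0.58 in VHL cells, and HMOX1, at 0.74 and 0.46, are examples, and neither was called for the difference (adjusted p = 0.232 and 0.509). As these genes were picked by their call in Vec cells, the choice itself favours smaller changes in VHL cells. The counts of 124 and 155 thus do not compare the strength of the 2 responses. DDIT4 differed most clearly, at 1.25 in Vec against 2.26 in VHL cells (difference 1.01, 95% interval 0.87 to 1.15, limma adjusted p = 1.31e-05). INHBE rose by 1.71 against 2.51 (difference 0.79, 0.58 to 1.0), ATF3 by 0.82 against 1.58 (0.76, 0.55 to 0.97) and PCK2 by 1.31 against 2.0 (0.70, 0.50 to 0.90). TXNIP rose by 0.43 against 1.11 (0.68, 0.50 to 0.86), MTHFD2 by 0.65 against 1.29 (0.63, 0.47 to 0.80), DDIT3 by 0.93 against 1.54 (0.60, 0.42 to 0.78) and STC2 by 0.81 against 1.39 (0.57, 0.43 to 0.71). That these 8 intervals leave out 0 follows from the call itself and adds nothing to it. All 8 genes stayed called for the difference without any 1 of the 12 arrays. These are differences of change, not of level. DDIT4 had mean levels of 11.45 in control and 12.70 in deprived Vec cells, against 8.51 and 10.77 in VHL cells. In control medium the difference, VHL minus Vec, was -1.29 for PCK2, -1.40 for ATF3, -0.75 for STC2 and -0.42 for DDIT3. It was -0.07 for INHBE and 0.28 for TXNIP. Whether the starting level bears on the size of a rise was not tested.

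CCN2 (0.46 against 0.98, difference 0.52) and RNF41, a ubiquitin ligase (0.32 against 0.82, difference 0.49), complete the 10. The adjusted p for CCN2 was 0.0345, and it rose to between 0.0591 and 0.116 on leaving out any array other than Vec control replicate 1, VHL control replicate 2 and VHL deprived replicate 3. RNF41, also at 0.0345, lost the call without any array other than Vec control replicate 3 and VHL control replicate 3 (0.0588 to 0.107). ATF4 was also called for the difference, with 0.11 in Vec and 0.44 in VHL cells (0.33, 0.21 to 0.45, limma adjusted p = 0.0416), but lost that call without any 1 of the 12 arrays (0.0682 to 0.126). HOXC6, a homeobox factor, was the only gene called in both lines with opposite signs, at -0.29 in Vec and 0.18 in VHL cells (difference 0.47, limma adjusted p = 0.0238), and lost the call without any array other than VHL control replicate 2 and VHL deprived replicate 3 (0.0526 to 0.0844). The remaining 4 genes of the 16 were not called in Vec cells: IRS2, an adaptor of insulin signalling, at 0.07 against 0.74, TFRC at -0.02 against 0.57, FUT1, a fucosyltransferase, at 0.19 against 1.21, and HS3ST3A1, a sulfotransferase, at 0.08 against -0.40. FUT1 lost the call for the difference on leaving out replicate 2 of the Vec control or replicate 1 of the Vec deprived arrays (0.0536 and 0.0602), and HS3ST3A1 without any array other than VHL control replicate 2 (0.0566 to 0.107).

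**Figure D4:**
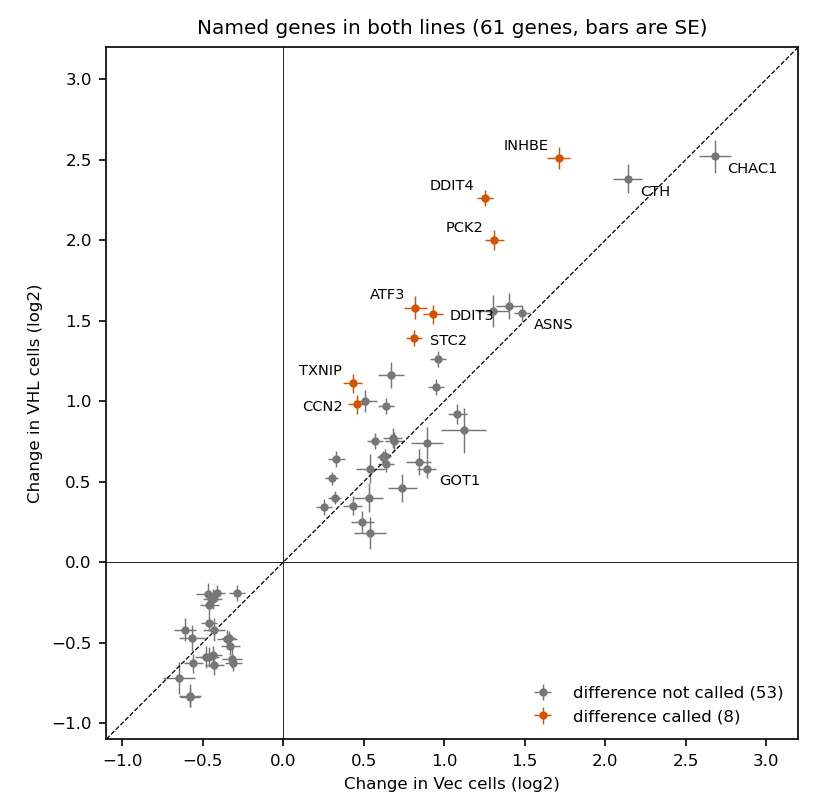
For 61 genes named here, the log2 change on deprivation in Vec cells is on the horizontal axis and that in VHL cells on the vertical axis, with bars of 1 standard error and a dashed line of equal change. Orange points are 8 genes called for a difference between the lines, all above the dashed line, with DDIT4 at 1.25 and 2.26. The rest of the 16 genes so called were not named by rule and are not drawn. Among them HS3ST3A1, at 0.08 and -0.4, would lie below the line.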

How the data were processed

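The deposited values are log2 expression values per probe set, the unit being read from the values; how the authors summarised and normalized the arrays is not given in the sources used here. Per the labels' protocols, total RNA was extracted on columns and biotin-labelled targets were prepared from it. The 12 arrays had lower quartiles of 5.533 to 5.631 and upper quartiles of 9.147 to 9.18, and no further scaling was applied. Of 22215 probe sets 19064 named 1 gene (1043 several, 2108 none), and symbols of 19052 were updated through RefSeq (GRCh38.p14). Where a gene had more than 1 probe set (4310 genes), that with the highest mean over the 12 arrays was used.

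All 12 arrays entered 1 fit with a mean for each group in limma 3.58.1 (R 4.3.3, lmFit and eBayes, 8 residual and 12.7 moderated degrees of freedom), two-sided, with Benjamini-Hochberg adjustment over 11963 genes. A ± gives the standard error from that fit, with n = 3 arrays per group. The number of arrays limits the precision. On simulated data of this comparison with 11963 genes the fit recovered 93% of changes of 0.5 and 100% of changes of 1 on the log2 scale, with 6 false calls. The simulated noise was independent between genes and arrays and had the spread that the fit itself had estimated. No smaller change was planted, so recovery at the median called changes, 0.33 and -0.27, is not known from it. Array quality could not be read from control probe sets, which were not used here.

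The comparison and the 47 gene lists (920 genes, 25 in more than 1 list) were chosen with earlier results of these data known. Named genes were VHL, the 16 largest rises and 16 largest falls that were called, did not overlap between groups and stayed called without any 1 Vec array, up to 3 such members of each list, and up to 5 factor targets for the label check. The 8 of these called for a difference between the lines are named as such. Other genes were named after their values were seen: further called members of the lists, members at the ends of a list, uncalled members shown for contrast, and the remaining genes called for the difference. One gene that the rule names is not reported here.

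Arrays of equal number in control and deprived Vec cells correlated in their deviations at between 0.0688 and 0.132 over 3 pairs. The 6 Vec pairs of unequal number ran lower, from -0.125 to 0.0174. Over all groups the ranges overlapped, from -0.268 to 0.235 for equal and from -0.35 to 0.291 for unequal numbers. A batch shared by number was not tested. The labels do not say that a number marks a shared culture, so the samples were treated as unpaired. Alternatives were quantile normalization, median centring, leaving out the genes with a mean at or under 6.47, averaging the probe sets of a gene, leaving out probe sets ending in _x_at or _s_at, a variance trend with robust moderation, the 6 Vec arrays alone, a replicate block, and each array left out in turn.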

Additional observations from a re-analysis of the deposited data

Results flagged for a closer look

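The response to deprivation differed between Vec and VHL cells, by a test of the difference itself, in 8 of the genes named by rule. The difference, VHL minus Vec on the log2 scale, was 1.01 for DDIT4, 0.79 for INHBE, 0.76 for ATF3, 0.70 for PCK2, 0.68 for TXNIP, 0.60 for DDIT3, 0.57 for STC2 and 0.52 for CCN2, all with the larger rise in VHL cells. In deprived medium DDIT4, PCK2, ATF3, STC2 and CCN2 still had higher mean levels in Vec than in VHL cells. INHBE, TXNIP and DDIT3 had lower ones. Among 3151 probe sets that name several genes or none, which enter no comparison above, 27 changed with deprivation in Vec cells (0.857%), 11 upward and 16 downward.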

How the results depend on the processing

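Of the 67 genes named by rule, all kept their direction and their side of the threshold in Vec cells under every alternative that could give a value, except 4 that lost their call when probe sets named _x_at or _s_at were dropped (GDF15 at 0.261, TMCC1 at -0.328, IFI44 at -0.108, SMOX at 0.385) and the uncalled COXFA4L2, which was at -0.015 and ran from -0.026 to 0.002 on leaving out 1 Vec array, above 0 without control replicate 1 alone. Counts moved more. Dropping those probe sets left 8369 genes with 233 calls in Vec cells (134 up, 99 down), and 3427 between the lines in control medium. The 6 Vec arrays alone gave 311 calls, 173 higher and 138 lower. A variance trend with robust moderation gave 728 in all, 380 of them lower, and 45 for the difference of the responses, and leaving out genes at or under 6.47 gave 374 lower. Leaving out 1 array gave between 253 and 503 calls, 144 to 262 higher and 95 to 241 lower, 11 to 16 for the difference and 5085 to 5574 between the lines. The share of rises among calls was 50.6%, and 62.5% without Vec control replicate 1. With the replicate block 434 were called, 225 higher and 209 lower, with 16 for the difference and 5517 between the lines, and as a pairing it changed no call of a gene named by rule in Vec cells. The differences for CCN2 and ATF4 were lost with median centring (adjusted p = 0.0917 and 0.0828) and with the replicate block (0.0764 and 0.0842), and that for ATF4 also without probe sets named _x_at or _s_at (0.0688). The causes were not tested.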
